A study of Mus musculus with 12 samples.

Results

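Bulk RNA-seq of 6 control tumors was examined, 3 from mice kept under blue light and 3 from mice kept in the dark, out of 12 libraries in all. The libraries were taken by their labels alone: every tumor grown from P815-M cells and none grown from P815-IFNG cells. P815 is a mastocytoma, a mast cell tumor line that arose in DBA/2 mice. P815-M cells stably carry a constitutive red fluorescent protein and firefly luciferase reporter (mRuby and Fluc, driven by the EF-1α promoter), and they hold neither the light-sensitive transactivator GAVPO nor the cytokine genes that P815-IFNG cells carry. The comparison therefore addresses what blue light goes with in tumors that have no light-controlled module.

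In both groups the cells were implanted under the skin of the back of DBA/2 mice of both sexes, aged 8 to 10 weeks. The sex of each mouse is not given, so the balance of sexes between the groups is not known. After 7 days the mice were randomly assigned, and tumors were taken after 6 days of further growth. The light group received blue light for 12 h per day and was housed singly in light-controlled cages, whereas the dark group received no blue light. The cages of the dark group are not described separately, so light and single housing cannot be told apart. P815-M is 1 clone grown from a single cell, so the implanted cells stand for 1 clone of the line. Each tumor holds host stroma and immune cells together with the implanted cells, so fewer cells of a type and less RNA per cell cannot be told apart in any value below.

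Several programs met in such a tumor are described here. Interferon-γ (IFNG), made mainly by T cells and natural killer cells, induces large GTPases (the guanylate-binding proteins and the immunity-related GTPases) and MHC class II in macrophages and in many other cells. Cells short of oxygen raise genes for glucose uptake and glycolysis, and cells short of sterol raise genes for cholesterol synthesis and uptake. In mice, light at night also acts on the circadian clock and on stress hormones.

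The mastocytoma identity was visible in all 6 libraries. Levels are given as CPM, the counts of a gene relative to its library's total after TMM scaling. Cpa3, a mast cell carboxypeptidase, lay between 628 and 1050 CPM, and Kit, the stem cell factor receptor, between 344 and 559 CPM. The reporter sequence was read 85 to 186 times in each library, whereas the GAVPO sequence was read 0 to 4 times and the cytokine cassette 0 to 2 times.

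3 properties of the libraries bear on the values below. Totals lay between 2211234 and 2593503 counts, so that a count of 3 corresponds to between 1.12 and 1.47 CPM. Depth means such a total of gene counts throughout, and the number of reads sequenced was not examined. Light replicate 3 and dark replicate 2 stood apart by skeletal muscle transcripts, with 539.8 and 774 CPM summed over the 12 muscle genes listed, against 108 to 179 CPM in the other 4 libraries. The counts also carried signal of both strands, although the library kit keeps strand. mt-Nd6, encoded opposite to the other mitochondrial protein-coding genes, took 41.5% to 47.9% of mitochondrial protein-coding counts in the light libraries and 29.0% to 36.7% in the dark libraries, against 3.56% and 3.85% in the 2 deeply sequenced P815-IFNG libraries. Genes annotated as antisense RNA took 16.9% to 21.5% of all counts here and 1.01% and 1.03% there. The level of 840 antisense RNAs opposite a protein-coding gene lay a median of 4.44 in log2 above their own level there. A gene whose exons lie opposite those of another gene is therefore uncertain, and the gene opposite is named where such a gene is described. For genes with no gene opposite, the strand that their counts come from was not tested either.

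Of 15722 genes tested, 244 were called (1.55%). A call required a Benjamini-Hochberg adjusted p no higher than 0.05 in edgeR's quasi-likelihood test, and a log2 fold change of 1 or more in size. The adjusted p alone was passed by 335 genes (2.13%). The p-values measure the spread between these tumors only. The calls were unequal in direction, with 222 genes higher in the light group (1.41%) and 22 lower (0.14%), while 48.9% of all genes had a positive fold change and the median over all genes was -0.01. The rises had a median log2 fold change of 1.40 and the falls one of -1.29. In 243 of the 244 genes the light and dark libraries did not overlap. Over all tested genes, 10.8% had no overlap with light higher and 10.3% had none with light lower. The calls were made on the same 6 libraries, so this count is a description.

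The number of calls depended on single libraries. It was 85 without light replicate 1, 86 without light replicate 2 and 162 without dark replicate 1, and 62 genes were called in all 6 fits that left out 1 library, 61 of them higher and 1 lower in the light group. When all 12 libraries of the series shared 1 estimate of the spread no gene was called by edgeR, with 510 genes at an unadjusted p under 0.05, while DESeq2 on the 6 libraries called 252 genes. Of the genes named below, Apoe, C1s1, C4b, Cd36, Dpt, Gm14319, Gm16567, Ndrg1, Rb1, Timp2 and 1700071M16Rik were called in all 6 of those fits, and the other called genes lost their call in at least 1. Without both muscle-rich libraries, a setting chosen after the data were seen, 275 genes were called, and 17 of the 50 called genes named below were not among them.

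Genes from lists described below serve as examples first, and Gbp7, H2-Aa and Hk2 among them were not called. Gbp7, an IFNG-induced GTPase, had a log2 fold change of 0.79. The 6 stretches upstream of these genes hold short letter patterns. Each is the 120 bases before the RefSeq start (GRCm38.p6), 5′ to 3′ on the strand of the gene, and capitals mark the pattern. The first 3 hold the interferon-stimulated response element (TTTC, any 2 bases, TTTC) on either strand, and Igtp and Gbp7 also hold the gamma-activated site TTCNNNGAA. H2-Eb1 and H2-Aa hold the Y box CTGATTGG, and Hk2 holds the core of the hypoxia response element, ACGTG, on the other strand.
Igtp, chr11:58199436-58199555, plus strand: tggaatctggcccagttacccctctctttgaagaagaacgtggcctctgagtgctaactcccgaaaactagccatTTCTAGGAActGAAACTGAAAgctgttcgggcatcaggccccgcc
Gbp7, chr3:142530216-142530335, plus strand: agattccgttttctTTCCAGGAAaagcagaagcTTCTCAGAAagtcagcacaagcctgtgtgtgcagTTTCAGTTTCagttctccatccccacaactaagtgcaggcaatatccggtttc
Ctss, chr3:95526666-95526785, plus strand: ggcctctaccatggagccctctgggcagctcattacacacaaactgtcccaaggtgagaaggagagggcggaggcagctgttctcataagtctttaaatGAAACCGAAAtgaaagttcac
H2-Eb1, chr17:34305747-34305866, plus strand: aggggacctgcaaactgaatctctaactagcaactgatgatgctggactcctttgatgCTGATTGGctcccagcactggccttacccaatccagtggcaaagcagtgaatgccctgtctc
H2-Aa, chr17:34287824-34287943, minus strand: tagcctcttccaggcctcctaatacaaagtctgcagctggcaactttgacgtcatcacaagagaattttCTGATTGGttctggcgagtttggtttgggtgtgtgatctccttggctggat
Hk2, chr6:82774455-82774574, minus strand: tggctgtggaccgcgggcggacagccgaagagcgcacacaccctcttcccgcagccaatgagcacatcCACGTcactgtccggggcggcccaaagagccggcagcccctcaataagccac

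Within 250 bases upstream, and counting both strands, the interferon-stimulated pattern occurred in 10 of the 11 IFNG-induced GTPases that the RefSeq table holds and in 3.22% of the 11445 tested genes it holds. In the type I interferon list the interferon-stimulated pattern occurred in 7 of 17 genes. The gamma-activated pattern occurred in 6 of those 11 GTPases and in 7.21% of tested genes. The Y box occurred in 3 of 5 genes of the MHC class II list and in 5.88% of tested genes. The hypoxia core occurred in 12 of 15 genes of the hypoxia and glycolysis list and in 24.2% of tested genes, and the sterol regulatory pattern TCACNCCAC in 1 of 9 cholesterol genes and in 1.30%. The patterns are descriptions of these windows, not evidence of binding.

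The GTPases induced by IFNG were higher in the light group throughout. All 16 had a positive log2 fold change, with a median of 1.21 against -0.01 over all genes, 14 had an unadjusted p under 0.05 (8.6% of all genes had one in that direction), and 2 were called. The shares over all genes apply to each list below as well. They were 48.9% with a positive value, 8.6% higher at an unadjusted p under 0.05, and 1.41% called higher. For falls they were 6.24% at an unadjusted p under 0.05 and 0.14% called. None of the 16 GTPases has exons opposite another gene. The summed level of the GTPases was 521, 368 and 458 CPM in the light libraries and 183, 79.9 and 317 CPM in the dark libraries. The groups did not overlap, and dark replicate 2 was lowest.

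Igtp, an immunity-related GTPase that acts on vacuoles holding pathogens, was at 55.5, 35.1 and 56.0 CPM in the light libraries and 15.7, 12.8 and 29.3 CPM in the dark libraries. Every light library lay above every dark library, and Igtp rose by 1.33 in log2 fold change (standard error, SE, 0.28, adjusted p = 0.0269, edgeR). Gbp2, a guanylate-binding protein (chromosome 3, 142620602 to 142638008), was at 45.3, 40.5 and 52.6 CPM under light and 17.9, 13.7 and 28.9 CPM in the dark. It rose by 1.18 in log2 fold change (SE 0.25, adjusted p = 0.0253, edgeR). Among members that did not pass, Iigp1 had a log2 fold change of 1.22 (adjusted p = 0.101) and Ifi47 had the smallest of the list, 0.52. DESeq2 called 3 of the 16, and 0 were called without both muscle-rich libraries, where edgeR gave Igtp 1.01 (adjusted p = 0.102) and Gbp2 0.88 (adjusted p = 0.0896).

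The signal for IFNG itself was near the floor. Ifng had 4, 1 and 4 counts in the light libraries and 2, 0 and 3 counts in the dark libraries, and no difference was detectable at this depth. Of the 15 tested genes of IFNG signalling and effector genes 12 were higher in the light group, 7 of them with an unadjusted p under 0.05, and 0 were called by edgeR or DESeq2, with a median of 0.67. Irf1, a transcription factor of the interferon response, had a log2 fold change of 0.94 (adjusted p = 0.106), and Nos2, which makes nitric oxide in macrophages, 1.10 (adjusted p = 0.147).

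Genes of the type I interferon response had a lower median than the GTPases. Of 24 tested, 21 were higher in the light group, 8 had an unadjusted p under 0.05, and the median was 0.49. Oasl2, an antiviral oligoadenylate synthetase-like protein, was called. Its level was 35.2, 26.7 and 27.8 CPM under light and 15.3, 8.83 and 15.6 CPM in the dark, 1.15 in log2 fold change (SE 0.26, adjusted p = 0.0351, edgeR). Of the MHC class I and immunoproteasome genes all 14 were higher, with a median of 0.45, and 0 were called by edgeR or DESeq2 although 5 had an unadjusted p under 0.05. H2-T23, a nonclassical class I gene at 0.86, was called without dark replicate 3.

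MHC class II genes, which present peptides to CD4 T cells, were higher in the light group. Of 8 genes 7 had an unadjusted p under 0.05, all higher in the light group, 3 were called and the median was 1.36. H2-Ab1 (chromosome 17, 34257689 to 34269419) was at 503, 462 and 544 CPM in the light libraries and 210, 38.7 and 201 CPM in the dark libraries. The light libraries lay close together while dark replicate 2 lay far below the other 2 dark libraries. H2-Ab1 rose by 1.74 in log2 fold change (SE 0.39, adjusted p = 0.036, edgeR), which was 1.30 without dark replicate 2, the library richest in muscle transcripts.

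H2-Eb1 rose by 1.56 (adjusted p = 0.0416) and Cd74, the invariant chain that accompanies class II molecules, by 1.36 (adjusted p = 0.0441) on the log2 scale. Without dark replicate 2 the 2 values were 1.15 and 0.98, and Cd74 then missed the fold required. DESeq2 called 1 of the 8 genes, and H2-Ab1 (adjusted p = 0.159), H2-Eb1 (adjusted p = 0.182) and Cd74 (adjusted p = 0.165) did not pass it. H2-Aa had a log2 fold change of 1.42 and did not pass (adjusted p = 0.0726). Ciita, the master regulator of class II genes, had 0.83 (adjusted p = 0.197), and its exons overlap those of Dexi. The member with a negative value, H2-Oa at -0.30, lay at most at 2.24 CPM and lies opposite BC051537.

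**Figure D1:**
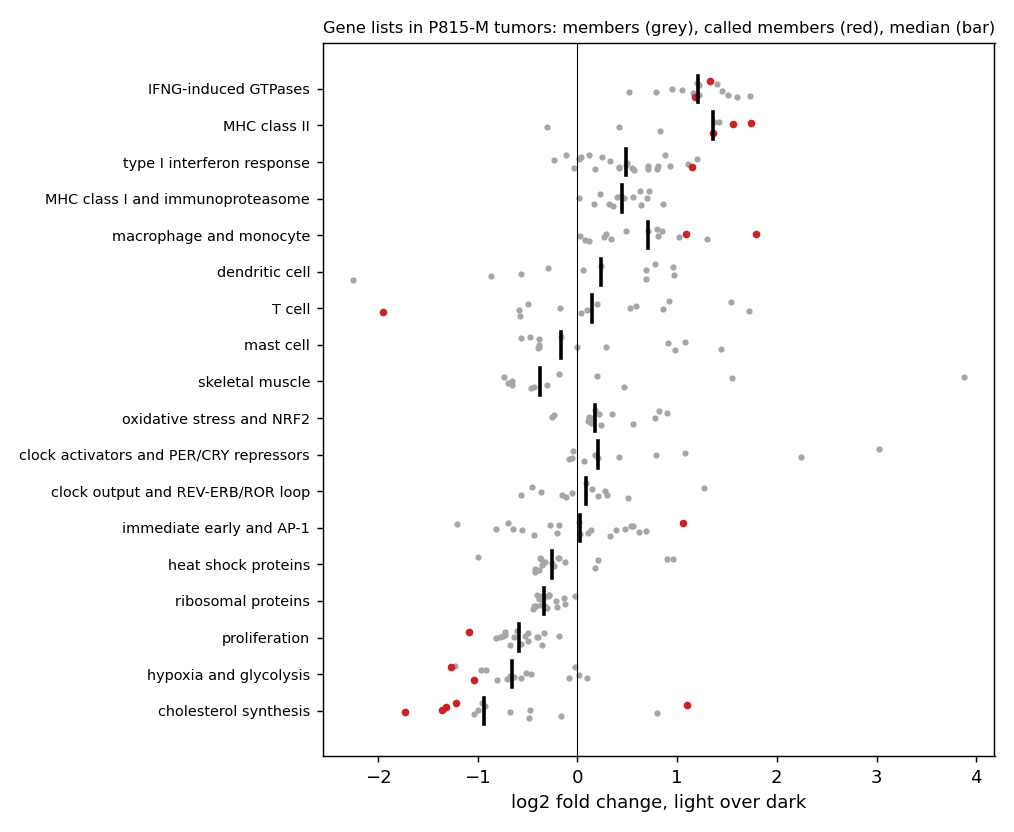
Log2 fold changes, light over dark, of the tested members of 18 gene lists in P815-M tumors (horizontal axis). Each point is a gene, red points are called genes and the bar is the median of the list, which runs from 1.36 for MHC class II to -0.94 for cholesterol synthesis.

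Macrophage markers were higher in the light group in unequal measure. All 15 of the list had positive fold changes with a median of 0.71, 8 had an unadjusted p under 0.05, and Lyz2 and C1qa were called. Lyz2, the lysozyme of macrophages and other myeloid cells, was at 737, 545 and 442 CPM under light and 178, 57.4 and 259 CPM in the dark. Every light library lay above the dark libraries, and Lyz2 rose by 1.80 on the log2 scale (SE 0.37, adjusted p = 0.0229 in edgeR and 0.081 in DESeq2). C1qa, a subunit of complement C1q made by macrophages, was at 167, 217 and 218 CPM under light and 125, 54.0 and 103 CPM in the dark, a log2 fold change of 1.08 (adjusted p = 0.0359). Without both muscle-rich libraries C1qa had 0.75 and missed the fold required.

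2 other defining markers of macrophages lay closer to 0. Adgre1, which encodes the F4/80 antigen, had 0.02 in log2 fold change (SE 0.19). Csf1r, the receptor that macrophages need to survive, had 0.27, and its exons overlap those of Hmgxb3. The summed level of the macrophage list was 1824 to 2116 CPM in the light libraries and 1122 to 1262 CPM in the dark libraries.

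Genes of lysosomes and of lipid handling, which macrophages express highly, held further calls. These lists, and those for complement and connective tissue that follow, were compiled after the values were seen, so their counts are descriptions. Of 16 genes of lipid handling in foamy macrophages 15 were higher, 7 were called and the median was 0.98. Of 25 genes for lysosomal proteins 21 were higher, 6 were called and the median was 0.37.

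Gpnmb, a glycoprotein that lipid-laden macrophages make in quantity, was at 26.5, 50.7 and 48.0 CPM under light and 11.2, 0.981 and 1.56 CPM in the dark. It rose by 3.10 in log2 fold change (SE 0.51, adjusted p = 0.00599, edgeR), which was 4.95 without dark replicate 1. Apoe, the apolipoprotein that carries cholesterol out of cells, was at 515, 667 and 766 CPM under light and 280, 268 and 139 CPM in the dark. Its groups did not overlap and it rose by 1.504 on the log2 scale (SE 0.24, adjusted p = 0.00556).

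Cd36, a receptor for oxidised lipoproteins and fatty acids, rose by 2.20 (adjusted p = 0.00221), and Lpl, which releases fatty acids from lipoproteins, by 1.78 (adjusted p = 0.0233 in edgeR and 0.119 in DESeq2). Abca1, the cholesterol efflux pump, rose by 1.07 and Plin2, the coat protein of lipid droplets, by 1.00, and both were called. Without both muscle-rich libraries Abca1 had 0.93 and Plin2 0.68, and neither was called. Cd5l, a secreted macrophage protein, rose by 1.42. Trem2, a lipid-sensing receptor, had 1.63 and did not pass (adjusted p = 0.0595), and Fabp4 had -0.79 with levels of at most 6.87 CPM.

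Among lysosomal genes, Ctss, a protease that trims the invariant chain, was at 441, 411 and 671 CPM under light and 243, 68.7 and 167 CPM in the dark. It rose by 1.66 in log2 fold change (SE 0.33, adjusted p = 0.0196, edgeR). Psap, the precursor of the saposins that help to degrade sphingolipids, was at 1460, 1511 and 2206 CPM under light and 934, 311 and 764 CPM in the dark. Both genes had no overlap between groups, were lowest in dark replicate 2 and were not called by DESeq2 (adjusted p = 0.0552 and 0.0976). Tcirg1, a subunit of the proton pump that acidifies lysosomes, and Lipa, the lysosomal acid lipase, were called as well, with 1.42 and 1.13.

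Complement components and regulators were mostly higher. Of 18, 17 were higher in the light group, 15 had an unadjusted p under 0.05 and 5 were called, with a median of 0.95. C4b (chromosome 17, 34728380 to 34743882) was at 389, 329 and 222 CPM under light and 80.1, 106 and 137 CPM in the dark, 1.54 in log2 fold change (SE 0.23, adjusted p = 0.00416, edgeR). Serping1, the inhibitor of C1, rose by 1.02 (adjusted p = 0.00716), while C2, which lies opposite Zbtb12, had 0.19. C1s1, a protease of the C1 complex, rose by 1.64, and its exons overlap those of Gm16567, which is described further on.

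Genes of connective tissue fibroblasts, a list also compiled after the values were seen, were mostly higher under light. Of 20, 19 were higher under light and 12 were called, with a median of 1.14, and 12 were called without both muscle-rich libraries too. Timp2, an inhibitor of matrix metalloproteinases, was at 210, 207 and 157 CPM under light and 72.7, 92.7 and 77.6 CPM in the dark, 1.24 in log2 fold change (SE 0.18, adjusted p = 0.00331, edgeR). Dpt, which encodes dermatopontin of the skin matrix, rose by 1.33 (adjusted p = 0.00416) and Igfbp5, a binding protein for insulin-like growth factors, by 1.84 (adjusted p = 0.0132).

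Collagen XIV, encoded by Col14a1, was at 117, 94.8 and 52.2 CPM under light and 35.8, 43.7 and 38.6 CPM in the dark, and rose by 1.16 (adjusted p = 0.0269). The list of general fibroblast and matrix genes had a median of 0.17 over 14 genes, with 9 higher and 0 called by edgeR or DESeq2, although 5 of them had an unadjusted p under 0.05. In the skin epithelium list 8 of 12 genes were at 0 in all 6 libraries, the keratins Krt5 and Krt14 among them, and 2 were tested. Krt10, which lies opposite Gm11940, was at 6.75, 9.79 and 7.57 CPM under light and 3.73, 2.45 and 5.46 CPM in the dark. Its log2 fold change of 1.02 did not pass (adjusted p = 0.279, edgeR). Perp, the other tested member, had -0.34 (adjusted p = 0.426).

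Genes of hypoxia and glycolysis were lower in the light group. Of 16, 14 were lower in the light group, 11 had an unadjusted p under 0.05 in that direction (6.24% of all genes), 2 were called and the median was -0.66. The summed level was 3405 to 3786 CPM in the light libraries and 5113 to 6152 CPM in the dark libraries. Slc2a1, the glucose transporter GLUT1, was at 148, 118 and 109 CPM under light and 269, 233 and 270 CPM in the dark, -1.04 in log2 fold change (SE 0.17, adjusted p = 0.00609, edgeR).

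Ndrg1, a gene strongly induced by low oxygen (chromosome 15, 66929318 to 66969640), was at 323, 290 and 208 CPM under light and 565, 678 and 729 CPM in the dark. Its groups were well apart and it fell by 1.27 on the log2 scale (SE 0.19, adjusted p = 0.00416). Exons of both genes overlap an antisense RNA, Gm12868 for Slc2a1 with a log2 fold change of -0.71, and Gm17035 for Ndrg1 with -1.04, Ndrg1 also lying opposite Gm2895. The 10 members with no gene opposite had a median of -0.60. Among them, Ldha, which makes lactate, had -0.71 (adjusted p = 0.0352) and Hk2, a hexokinase, -0.81 (adjusted p = 0.0184), so both passed the test but not the fold required. Without both muscle-rich libraries 3 of the 16 were called, all lower. The 2 members with positive values, Car9 and Pfkfb3, had 0.01 and 0.10, and exons of Car9 lie opposite Gm12454.

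Genes of cholesterol synthesis and uptake had the lowest median of the lists, -0.94. Of 14, 12 were lower in the light group, 8 with an unadjusted p under 0.05, and 4 fell past both thresholds while 1 rose. Insig1, which retains the sterol sensor in the endoplasmic reticulum, was at 8.68, 9.79 and 6.73 CPM under light and 28.7, 15.7 and 17.9 CPM in the dark, with -1.31 in log2 fold change (SE 0.31, adjusted p = 0.0423, edgeR). Without both muscle-rich libraries 0 of the 14 fell past the thresholds in edgeR, with Insig1 at -1.33 (adjusted p = 0.0565) and Fdps at -1.41 (adjusted p = 0.117).

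Fdps, which makes farnesyl diphosphate, was at 6.27, 8.01 and 4.63 CPM under light and 27.6, 25.0 and 10.5 CPM in the dark, with -1.73 (adjusted p = 0.0315). Cyp51, the lanosterol demethylase, fell by 1.36 on the log2 scale, and its exons overlap those of Akap9. Stard4, which carries cholesterol between membranes and was named for the size of its fall, had -1.23 (adjusted p = 0.017). Srebf2, which encodes the factor that drives these genes, was at 33.2 to 36.6 CPM under light and 60.8 to 84.2 CPM in the dark, with a log2 fold change of -0.998 that lay just short of the fold required (adjusted p = 0.0129).

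The member that rose is uncertain. Fdft1, squalene synthase, was at 285, 283 and 247 CPM under light and 113, 156 and 113 CPM in the dark, a log2 fold change of 1.10 (adjusted p = 0.00577), and 774 bases of its exons lie opposite Ctsb, a lysosomal protease. Ctsb had a log2 fold change of 0.88 (adjusted p = 0.0363). Mvd also had a positive value, 0.79 (adjusted p = 0.0416), and has no gene opposite.

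**Figure D2:**
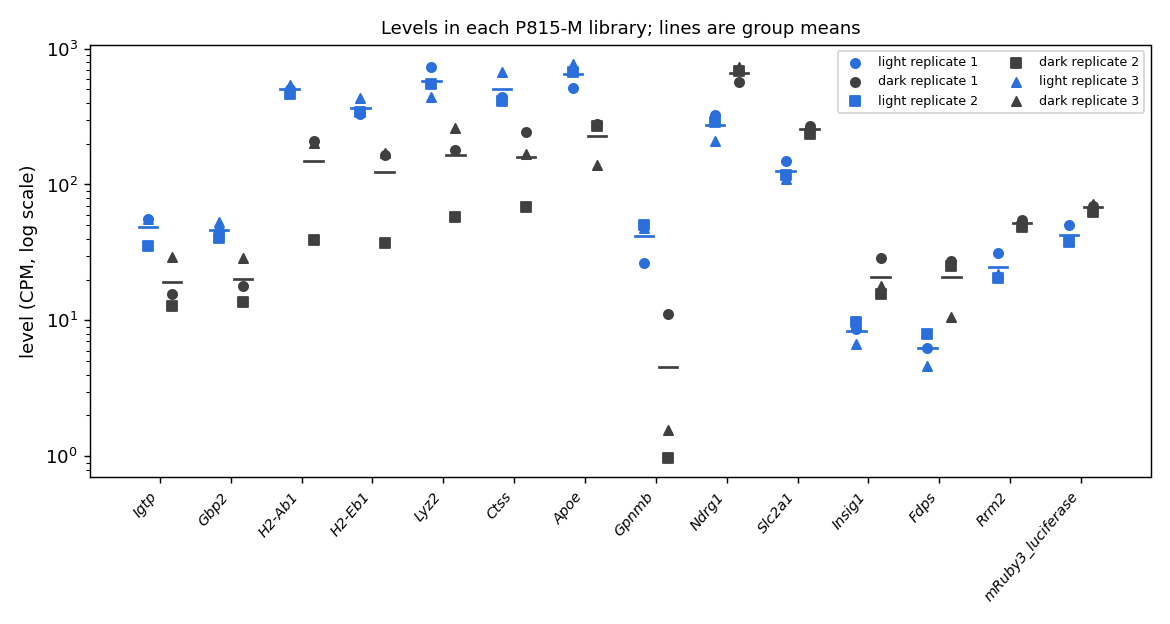
Level of 14 sequences in each of the 6 P815-M libraries (CPM, log scale). Blue symbols are light libraries, dark grey symbols are dark libraries, symbol shape gives the replicate and lines are group means. Groups do not overlap for any of the 14. Dark replicate 2 is the lowest dark library for Igtp, Gbp2, H2-Ab1, H2-Eb1, Lyz2, Ctss and Gpnmb. It is also the lowest for Slc2a1, Insig1, Rrm2 and the reporter.

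Cell cycle genes were lower in the light group without exception. All 18 had negative fold changes, with a median of -0.59, 14 had an unadjusted p under 0.05 and 1 was called. Rrm2, a subunit of the ribonucleotide reductase that supplies nucleotides for replication, was at 31.3, 20.5 and 21.9 CPM under light and 55.2, 48.6 and 52.3 CPM in the dark, -1.09 in log2 fold change (SE 0.21, adjusted p = 0.0142, edgeR). Mcm2, a subunit of the replicative helicase, had -0.72 (adjusted p = 0.0391), Top2a -0.57 and Mki67 -0.40. Cdca3, which promotes entry into mitosis and was named for the size of its fall, was at 2.89, 4.89 and 4.21 CPM under light and 16.4, 10.3 and 16.4 CPM in the dark, with -1.83 (adjusted p = 0.0189). All 20 genes of the ribosomal protein list were also lower, by a smaller median of -0.33, with 6 at an unadjusted p under 0.05 and 0 called by edgeR or DESeq2.

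The reporter of the implanted cells was lower under light as well. It was at 50.2, 37.8 and 39.1 CPM in the light libraries and 69.3, 63.3 and 71.8 CPM in the dark libraries, with no overlap, and its log2 fold change of -0.69 did not pass (SE 0.18, adjusted p = 0.0655, edgeR). Kit and Cpa3 had -0.38 and -0.39 (adjusted p = 0.299 and 0.303), and the mast cell list had a median of -0.17 over 13 genes of which edgeR and DESeq2 called 0, 3 having an unadjusted p under 0.05. Gata1, a factor of mast cells and erythroid cells, was called at 8.68, 7.56 and 8.84 CPM under light and 14.5, 22.6 and 20.7 CPM in the dark, a log2 fold change of -1.19 (adjusted p = 0.0463 in edgeR and 0.0765 in DESeq2). The part of the tumor cell share in the other differences was not tested. The 5 genes of the sex-linked list were all higher in the light group, with a median of 0.96, and 0 were called by edgeR or DESeq2. Their summed level was 14.7 to 19.4 CPM under light and 4.90 to 10.4 CPM in the dark. The part of the sex of the mice in any difference was not tested.

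Few lymphocyte and granulocyte markers were called. Cd3e, a chain of the T cell receptor complex that lies opposite Gm48719, was at 0 to 5.47 CPM, and no difference was detectable at this depth. Cd28, the costimulatory receptor, was the called member of the T cell list. It was at 1.45, 4.89 and 2.52 CPM under light and 8.57, 15.2 and 11.3 CPM in the dark. Cd28 fell by 1.94 on the log2 scale (SE 0.45, adjusted p = 0.0396, edgeR). DESeq2 called it too (adjusted p = 0.0307), but it was called in 0 of the 6 fits that left out 1 library. Nkg7, a granule protein of natural killer and cytotoxic T cells, had 17, 7 and 21 counts under light and 6, 0 and 5 in the dark. Its groups did not overlap, and its log2 fold change of 2.15 did not pass (adjusted p = 0.15). The list of natural killer and cytotoxic cells had a median of 0.53 over 10 genes. In the neutrophil list Ly6g and Ltf were at 0 in all 6 libraries, and the 6 genes tested had a median of -0.72. Cxcr2, the chemokine receptor of neutrophils, was at 22.2, 29.4 and 32.0 CPM under light and 43.6, 43.7 and 49.5 CPM in the dark, and its log2 fold change of -0.71 did not pass (adjusted p = 0.0856).

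Genes that respond to the light cycle or to stress held few calls. The clock activators and PER/CRY repressors had a median of 0.21 over 11 genes and the clock output list one of 0.08 over 13, and 0 genes of either were called by edgeR or DESeq2, with 3 of the 24 at an unadjusted p under 0.05 in edgeR. Per1 had -0.05 in log2 fold change (SE 0.21), Per2 0.42 (SE 0.30) and Dbp 0.30, Dbp being opposite Sphk2. Nfil3, a repressor of clock outputs, had -0.56 (adjusted p = 0.202). Glucocorticoid-induced genes had a median of -0.02 over 13 genes and heat shock protein genes one of -0.26 over 17, with 0 called in either list by edgeR or DESeq2 and 4 and 3 genes at an unadjusted p under 0.05.

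Single genes of these lists passed the test. Klf4, an early response transcription factor, was at 48.2, 42.7 and 32.8 CPM under light and 17.9, 20.1 and 21.1 CPM in the dark, and rose by 1.06 in log2 fold change (SE 0.21, adjusted p = 0.0201, edgeR). The other immediate early genes had a spread of values, with Jun, opposite Junos, at 0.69 and Egr1 at -0.64, and a list median of 0.02 over 21 genes. Rbm3, an RNA-binding protein induced by mild cold, was at 126, 156 and 148 CPM under light and 259, 270 and 301 CPM in the dark, a log2 fold change of -0.95 (adjusted p = 0.00892) that missed the fold required. Its exons overlap by 94 bases those of the antisense RNA Rbm3os, which had -0.49 (adjusted p = 0.207). Ddit4, induced by glucocorticoids and by hypoxia, had -0.80 (adjusted p = 0.0298). Cirbp, the other cold-inducible protein, had -0.22.

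Of the 6 largest called rises, 5 had at most 33 counts in any library, and the other was Gpnmb. Gm34510, which could not be placed, had 33, 18 and 10 counts in the light libraries and 0, 2 and 1 in the dark libraries, 4.31 in log2 fold change (SE 0.80, adjusted p = 0.0127, edgeR), or 5.27 without dark replicate 2. Tmprss4, a membrane serine protease that lies opposite Gm17099, had 13, 14 and 7 counts against 2, 0 and 0, with 3.996 in log2 fold change, or 6.55 without dark replicate 1. Bmp7, a growth factor of the TGF-β family, had 27, 15 and 9 counts against 0, 4 and 1, with 3.36 in log2 fold change (SE 0.82, adjusted p = 0.0465), or 5.02 without dark replicate 2. Bmp7 and Tmprss4 were each called in 2 of the 6 fits that left out 1 library, and Gm34510 in 4. Further down, Pamr1 had 17, 14 and 23 counts under light against 2, 1 and 4 in the dark, and Pcsk6, a proprotein convertase, 73, 39 and 45 against 19, 2 and 13. The lincRNA Gm14319 had 47, 38 and 50 counts under light and 8, 7 and 8 in the dark (log2 fold change 2.65, adjusted p = 0.00144). Among the falls, Col6a5, a collagen VI chain, was lowest at -2.03 (not called by DESeq2, adjusted p = 0.244), with 6, 26 and 55 counts under light and 65, 173 and 127 in the dark. It was called in 2 of the 6 fits that left out 1 library, with -2.82 without light replicate 3. Igfbp3 had -1.51.

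Many of the calls lay opposite another gene. Of the 244 called genes, 129 have exons that overlap those of a gene on the other strand (2.34% of the 5515 such genes tested), 110 do not (1.10% of 9992) and 5 could not be placed. Of the called genes, 62 are annotated as antisense RNA (4.30% of the 1441 tested), all higher in the light group. The share called was 1.23% of protein-coding genes and 1.55% of all genes, and 222 of all 244 calls were higher. For 123 called genes the gene opposite was tested too, and in 120 of these its log2 fold change had the same sign. A pair with both genes called can enter once for each gene, and 39 of the 123 had a called gene opposite. The share of same signs over all tested pairs is not given. For 836 of the 840 antisense RNAs above, called or not, the partner was tested, and the log2 fold changes had a Pearson correlation of 0.61.

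The pair Gm16567 and C1s1 shows the pattern. Gm16567 was at 2318, 1861 and 1403 CPM under light and 406, 471 and 560.5 CPM in the dark, a log2 fold change of 1.96 (adjusted p = 7.14e-04, edgeR), close to the 1.64 of C1s1, with which it shares 576 bases of exon. In the 2 P815-IFNG libraries with the larger totals, Gm16567 was at a mean of 13.9 CPM and C1s1 at 45.9 CPM. In the 6 P815-M libraries they were at 1158 and 77.7 CPM. Likewise 1700071M16Rik, opposite Pla2g7 (platelet-activating factor acetylhydrolase, made by macrophages), rose by 1.76 and Pla2g7 by 2.00. Such counts can hold reads of the partner, and the part of each strand was not tested.

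**Figure D3:**
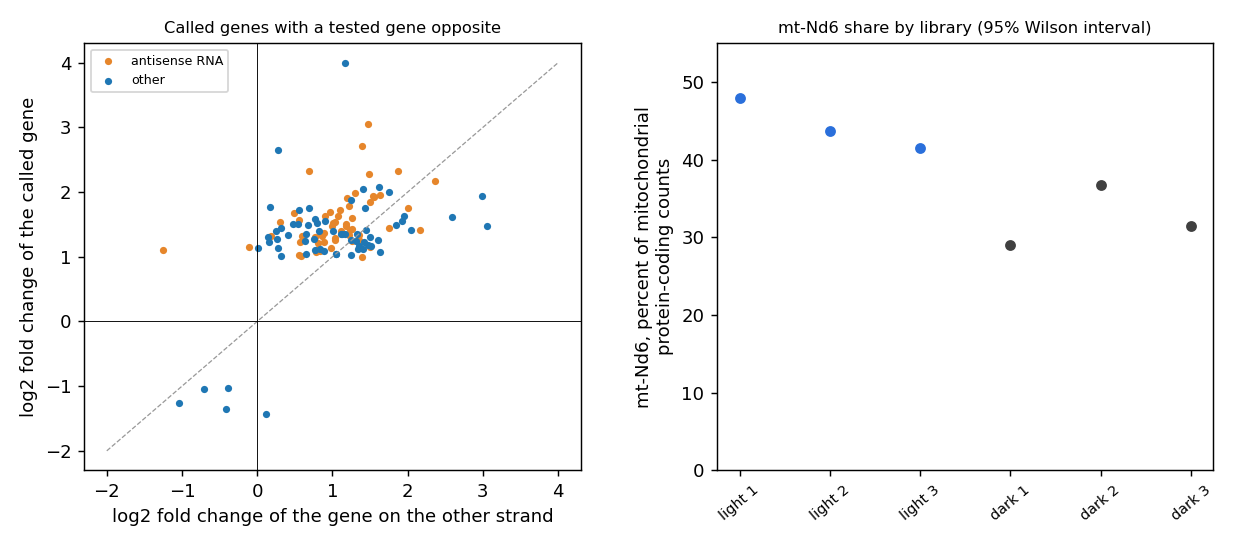
Left, log2 fold change of each called gene that has a tested gene opposite (vertical axis) against that of the opposite gene (horizontal axis). The dashed line marks equal values, and 120 of 123 called genes share its sign. Right, share of mt-Nd6 among mitochondrial protein-coding counts in each P815-M library with its 95% Wilson interval, which covers counting error only and is narrower than the symbols. All 3 light libraries lie above all 3 dark libraries.

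The called genes with no gene opposite divided into 93 higher and 17 lower, and those with one into 124 higher and 5 lower. Leaving out before the test every gene that lies opposite another, 144 of the remaining genes were called, 131 of them higher in the light group. The mt-Nd6 share given above also differed between the groups, and its part in the differences was not tested.

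The same contrast in P815-IFNG tumors, made with the 2 light and 2 dark libraries of like depth, gave 1 called gene of 16944 (0.0059%), with 1810 at an unadjusted p under 0.05 by edgeR (10.7%). With all 12 libraries edgeR called 0 of 18804 there, 409 having an unadjusted p under 0.05 (2.18%). The list medians of both lines follow. The IFNG-induced GTPases had a median of 1.36 there and 1.21 here, and the MHC class I list 0.47 and 0.45. MHC class II had a median of 0.05 there and 1.36 here, the macrophage list -0.10 and 0.71, the complement list -0.01 and 0.95, and the list of lipid handling -0.25 and 0.98. Cell cycle genes had -0.41 there and -0.59 here, and hypoxia genes -0.11 and -0.66. Lists of host tissue also differed, with skeletal muscle genes at -3.24 there and -0.37 here and adipocyte genes at -3.28 and -0.60, and their part in the other differences between lines was not tested.

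**Figure D4:**
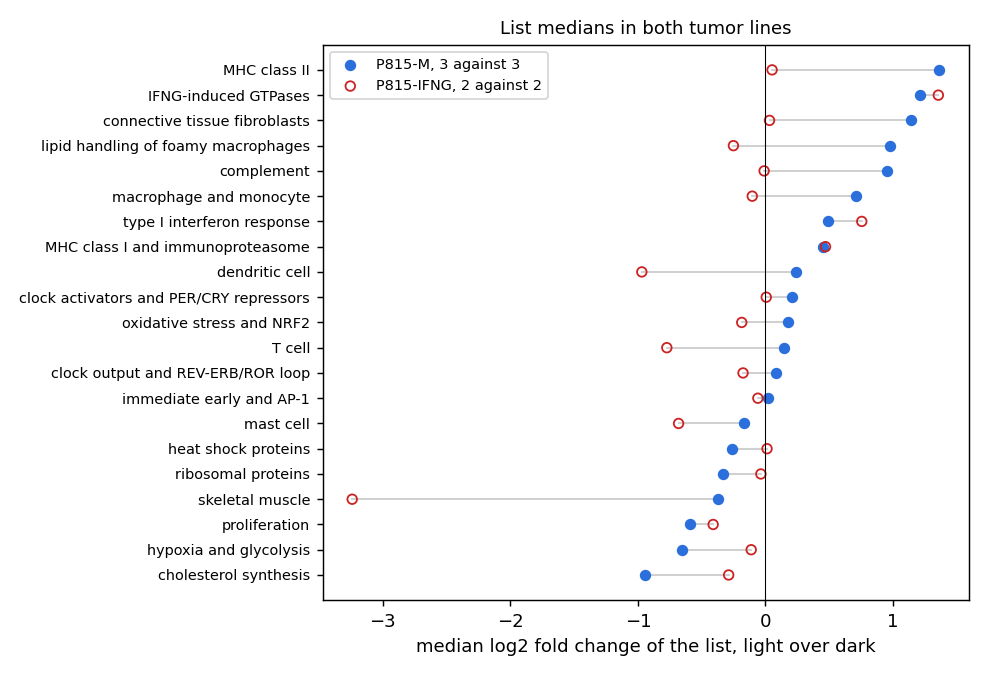
Median log2 fold change, light over dark, of 21 gene lists in P815-M tumors (filled, 3 against 3 libraries) and in P815-IFNG tumors (open, 2 against 2). The medians lie close together for the IFNG-induced GTPases, 1.21 and 1.36, and apart for MHC class II, 1.36 and 0.05.

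Tested gene by gene, the effect of light in P815-M minus that in P815-IFNG was called for 2 of 16944 genes (0.0118%), while 1304 had an unadjusted p under 0.05 (7.7%). Of the 222 genes that rose in P815-M, 166 had a positive value in P815-IFNG, and their median there was 0.36 against 1.40. Of the 22 that fell, 15 had a negative value there. Both sets were chosen by their values in P815-M, so the gap between the medians does not measure a difference between the lines. The share of all genes with a positive value in P815-IFNG is not given, so these counts are descriptions. Among the GTPases 0 of 16 had an unadjusted p under 0.05 for the difference by edgeR, against 4 of 8 in the MHC class II list, 8 of 15 macrophage markers and 9 of 16 genes of lipid handling. For Igtp the difference was -0.29 with a standard error of 0.70.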

How the data were processed

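RNA-seq counts of 12 tumors were used, 6 of them for the main comparison. The authors deposited raw counts per gene, one table per library. Per the labels and the methods, reads of TruSeq Stranded mRNA libraries were trimmed with fastp, aligned to mm10 with the knock-in sequences added by STAR 2.7.9a and counted with HTSeq 0.13.5 at default settings, which count 1 strand. The strand of the counted reads was not stated, and count totals and strand balance differ between libraries. Depth here means the total of gene counts, and the number of reads sequenced was not examined.

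Mitochondrial rows and genes with under 10 counts in all were removed. The 6 libraries were fitted alone in edgeR 4.0.16 under R 4.3.3 (TMM, quasi-likelihood test, Benjamini-Hochberg). The code was tested on simulated data. Standard errors are the log2 fold change divided by the root of F. The 6 libraries hold 3 separate biological replicates per group, and replicates differed by more than sampling noise. Called genes needed an adjusted p of at most 0.05 and a log2 fold change of at least 1 in size. The difference between lines was fitted on 10 libraries of like depth.

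Exon overlaps came from GENCODE M21 with bedtools 2.31.1, by symbol (31432 of 32248 symbols were placed once), and upstream sequences from RefSeq (GRCm38.p6). Gene lists, 37 in number with 4 added later, and the rule for naming genes were chosen with earlier results of these data known. The rule took up to 15 called genes per direction with the largest change, no overlap of groups and a mean of at least 3 CPM, and the called or the 4 leading members of each list. Genes outside it, among them those of the added lists, Ctsb, Rb1, Adgre1, Trem2 and the genes with small values, were chosen after their values were seen. Alternatives were DESeq2 1.42.0, other scalings and filters, the replicate block, and leaving out libraries. Some genes are not reported here.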

Additional observations from a re-analysis of the deposited data

Results flagged for a closer look

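Apoe and Rb1 differed between the tumor lines in their response to light, by a test of the difference itself on the 10 libraries of like depth. With all libraries scaled together, Apoe was at 491, 658 and 798 CPM in the P815-M light libraries and 297, 251 and 142 CPM in the dark libraries. In the P815-IFNG libraries of like depth it was at 271 and 556 CPM under light and 1949 and 1413 CPM in the dark. The difference of the log2 fold changes was 3.36 (standard error 0.46, adjusted p = 0.035, edgeR). Rb1, the retinoblastoma tumor suppressor, was at 50.6, 52.6 and 58.3 CPM in the P815-M light libraries and 28.05, 12.0 and 15.5 CPM in the dark libraries, whereas P815-IFNG had 28.3 and 31.5 CPM under light and 92.5 and 53.4 CPM in the dark. Its difference was 2.69 (standard error 0.39, adjusted p = 0.0398), and its exons overlap those of Rcbtb2 and Lpar6 on the other strand. In P815-M all 3 light libraries lay above all 3 dark libraries for both genes. The calls depended on the libraries used. With all 12 libraries, Apoe had a difference of 3.23 (adjusted p = 1.00) and Rb1 one of 2.57 (adjusted p = 1.00). In the P815-IFNG pair of high depth, which the 10 libraries leave out, Apoe was at 148 CPM under light and 176 CPM in the dark, and Rb1 at 11.3 CPM and 7.36 CPM, the other direction. In the 10 fits that left out 1 library, Apoe was called in 5, with differences from 2.90 to 4.02, and Rb1 in 2, with differences from 2.27 to 3.07.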

How the results depend on the processing

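The number of genes called, 244, was 242 with DESeq2's size factors, 231 with library totals, 252 with DESeq2, 280 with edgeR's own filter and 244 with mitochondrial genes kept. It was 455 with no filter (385 higher, 70 lower), 157 with the 10 libraries of like depth (145 higher, 12 lower), 144 without genes opposite another (131 higher, 13 lower) and 335 with no minimum fold (49 lower). With all 12 libraries edgeR called 0 (0 higher, 0 lower), with 510 at an unadjusted p under 0.05. Leaving out 1 library gave 85 (light replicate 1) to 259 (light replicate 3) calls, 75 to 233 higher and 1 (light replicate 2) to 30 lower. The falls were 10 without light replicate 1, 11 without dark replicate 1 and 12 without dark replicate 2. Without the 2 libraries richest in muscle counts, an alternative chosen after seeing the data, 275 genes were called, 34 lower, of which 168 were among the 244. All 244 kept their sign in each of the 6 fits that left out 1 library. Of the 50 called genes named in the text, between 14 and 36 lost their call in those fits. DESeq2 gave 49 of them an adjusted p and left 9 of those uncalled.

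The replicate numbers did not pair the samples: same-numbered libraries had correlations of -0.05, -0.02 and -0.25 between their deviations from the group means. With the replicate block 213 genes were called, 191 of them among the 244. The block gave Car9 a log2 fold change of -0.027 and H2-Oa one of 0.060, both opposite in sign.

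The difference between lines was called for 2 genes, and for 26 by DESeq2, 14 with the replicate block and 0 with all 12 libraries (313 at an unadjusted p under 0.05). Leaving out 1 library gave 0 to 3: 0 without P815-IFNG dark replicate 1 or P815-M dark replicate 3, light replicate 2 or light replicate 3, and 1 without P815-IFNG light replicate 1 or 2.

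Values near 0 changed sign. Leaving out 1 library, Adgre1 ranged from -0.081 to 0.25, Car9 from -0.25 to 0.29, Per1 from -0.25 to 0.074 and Pfkfb3 from -0.11 to 0.31. H2-Oa ranged from -0.88 to -0.02. Without the 2 muscle-rich libraries Adgre1 had -0.073, Car9 -0.23 and Pfkfb3 -0.13, and without genes opposite another Per1 had 0.00981. The cause of these changes was not tested.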
